A study of Nothobranchius furzeri with 25 samples.

Results

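The genes described here are 161 conserved open reading frames of the turquoise killifish Nothobranchius furzeri that carry a place instead of a name. Each is called after an uncharacterized human open reading frame, in the form C, number, H, number, ORF, number. The number before H is the chromosome of the zebrafish counterpart, and the number after H with ORF gives the human reading frame, so that C1H15ORF23 stands for human C15ORF23. The members were chosen by this form of the name among 1999 names of the first, alphabetical stretch of the study's expression table, where 163 names had it. One of these, C19H1ORF51 (1 OF 2), a copy of a clock gene, was set aside. Of the remaining 162 names, 161 could be paired with 1 contig each among the 18228 contigs counted, and C11H19ORF22 is not analysed here. Contigs are assembled transcript sequences, and the members' contigs were 458 to 7193 bases long, with a median of 2000. Several members, such as C10H9ORF80 and C17H15ORF52, had a length of exactly 2000, and whether this is a measured length was not tested. For 154 members the contig and its zebrafish gene were each other's best match, and for 7 they were not. A label such as 1 OF 2 marked 34 members as one of several fish copies of the human gene.

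Genomes are annotated with such provisional names when a sequence predicts a protein, the protein is conserved between fish and human, and no function was known when the name was given. Some of these human genes have since been tied to a function, such as assembly of respiratory complexes, positioning of lysosomes, glycosylation of receptors or control of mitosis. The human symbol is given beside the fish name where it is known. The roles named below are known from proteins of human or other vertebrates and not from N. furzeri.

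Whole brains of male fish were sequenced, 1 library per brain. All came from MZM-04/10, a longer-lived laboratory strain of N. furzeri derived from wild fish. There were 25 libraries, 5 at each of 5, 12, 20, 27 and 39 weeks of age, from sexual maturity to old age. The fish were fasted and killed at the same hour, and age is the difference between the groups that the sample labels give. By the paper, most fish of this strain have died by 39 weeks. It raises selection of slower-ageing fish in the oldest group as a possibility, which was not tested here. Only males of 1 strain were sampled, each fish once, so that differences between ages are differences between different animals.

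Library totals ranged from 15690560 to 26378519 counts, and the mark w0w1, whose meaning is not given in the sources used here, stood in the titles of 6 libraries, at least 1 at each age. Levels are given as CPM, the count scaled to the size of the library after normalization. Expression of different members is ranked as CPM per kilobase of contig. The exception is the choice of members to name from the role lists, which used mean CPM without regard to length. Markers of radial glia and astroglia (AQP4 and ALDH1L1, both measured) summed to 102.2 to 132 CPM at 5 weeks and to 72.7 to 255 CPM later. Most of this sum was ALDH1L1, with means at 5 weeks of 114.6 CPM for ALDH1L1 and 2.66 CPM for AQP4. The paper states that teleost brains have no astroglia. The oligodendrocyte marker ASPA was at 22.9 to 29.9 CPM at 5 weeks and 35.5 to 83.6 CPM later. ALDH1L1 and ASPA were called higher at 12 than at 5 weeks, with log2 fold changes of 0.64 (adjusted p = 0.0359) and 1.05 (adjusted p = 0.000338) by edgeR. AQP4 was not called (0.24, adjusted p = 0.328). No list of neuronal markers was used. Skeletal and cardiac muscle markers, 8 of 8 measured, summed to 138 to 677 CPM at 5 weeks and to 112 to 270.4 CPM at the later ages, and ACTC1A and ACTC1B were called lower at 12 than at 5 weeks (log2 fold changes of -1.02, adjusted p = 0.00331, and -1.13, adjusted p = 0.00943). Of 7 retina and pineal markers, summing to 1.56 to 20.9 CPM, AIPL1, ARR3 (1 OF 2) and ASMT were called lower at 12 weeks, and ASMT was called higher at 39 than at 12 weeks (1.99, adjusted p = 0.0284). The red blood cell marker ALAS2 was at 12.8 to 40.2 CPM at 5 and 12 weeks and 6.12 to 20.7 CPM at 39 weeks, and was called lower at 39 than at 12 weeks (-1.31, adjusted p = 0.0179) and than at 5 weeks (-1.50, adjusted p = 0.00170). At 39 against 5 weeks ACTC1A, ACTC1B and ARR3 (1 OF 2) were called lower, and the muscle marker ATP2A1 and the lens marker BFSP1 higher. The call of ATP2A1 was near the threshold (adjusted p = 0.0435 by edgeR). Its SD at 39 weeks exceeded its mean (5.32 ± 7.58 CPM, n = 5), so its libraries of that age differed widely. No other tested muscle marker was called higher between these ages. The part of these cells in the results was not tested.

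Of the 161 members, 155 passed the filter on low counts and were tested among 16484 genes. The other 6, C11H1ORF116, C12H16ORF73, C13H1ORF65, C17H2ORF3, C17H6ORF192 and C19H7ORF46, had mean levels of 0.360 CPM or less. The best expressed member per length was C13H1ORF63, whose human counterpart RSRP1 encodes a protein rich in arginine and serine, at 562 CPM per kilobase over the 25 libraries. C13H10ORF32 (BORCS7), a subunit of the complex that moves lysosomes along microtubules, followed with 466 CPM per kilobase. C15H11ORF51 (ANAPC15), a subunit of the anaphase-promoting complex, stood at 135 CPM per kilobase, and C19H7ORF41 (MTURN), known from frog embryos as a neural differentiation factor, at 119. The fifth member in this order, C19H1ORF216, was at 49.4 CPM per kilobase.

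To find which members changed with age, each pair of ages was compared in 1 model of all 25 libraries with edgeR's quasi-likelihood test, and a gene was called at an adjusted p under 0.05 over all 16484 genes tested. Between 5 and 12 weeks 29 of 155 members were called (18.7%, against 23.8% of all genes), 13 higher and 16 lower at 12 weeks, where the shares of all genes were 10.8% and 13.01%. Between 5 and 39 weeks 55 members were called (35.5%, against 36.9%), 34 higher and 21 lower at 39 weeks, against 18.2% and 18.7% of all genes. Between 12 and 39 weeks 14 were called (9.03%, against 12.6%), 11 higher and 3 lower, against 5.81% and 6.8% of all genes. In each of these comparisons the share of members called in either direction was below that of all genes. The share of members called higher at 39 weeks was above that of all genes, against both 5 and 12 weeks. These differences in share were not tested. The members' median log2 fold change was -0.01 between 5 and 12 weeks (0.01 over all genes). It was 0.06 between 5 and 39 weeks (0.01) and 0.05 between 12 and 39 weeks (0.01). In all, 77 of the 155 members (49.7%) were called in at least 1 of the 10 pairs of ages, against 55.9% of all genes.

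**Figure D1:**
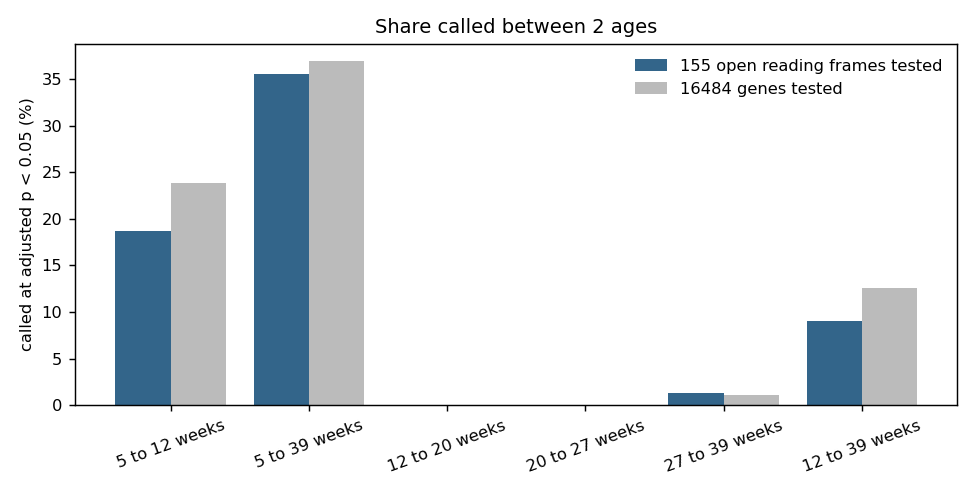
Share of the 155 open reading frames tested (blue) and of all 16484 genes tested (grey) that were called at an adjusted p under 0.05 between 2 ages, in percent. The blue bar is lower than the grey one from 5 to 12 weeks (18.7% and 23.8%), 5 to 39 weeks (35.5% and 36.9%) and 12 to 39 weeks (9.03% and 12.6%).

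The largest falls called between 5 and 12 weeks were those of C13H6ORF108 and C1H15ORF23. C13H6ORF108 is the counterpart of DNPH1, an enzyme that removes modified nucleotides before they enter DNA. It measured 10.02, 10.9, 11.3, 15.9 and 20.6 CPM in the 5 libraries of 5 weeks and 3.72, 4.21, 5.14, 6.02 and 6.66 CPM in those of 12 weeks. Every 5-week library was above every 12-week library, and means were 13.7 ± 4.43 and 5.15 ± 1.22 CPM (SD, n = 5 each; log2 fold change -1.42, SE 0.25, adjusted p = 0.000304 by edgeR). At 20, 27 and 39 weeks it stayed within the 12-week level or below, with 3.10 to 5.45, 2.75 to 5.80 and 1.89 to 5.34 CPM.

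C1H15ORF23 is the counterpart of KNSTRN, a protein of the kinetochore and the mitotic spindle. Its levels were 6.64, 7.39, 7.96, 11.1 and 13.6 CPM at 5 weeks and 2.58, 3.18, 3.51, 3.57 and 4.79 CPM at 12 weeks. The ages did not overlap here either, and the mean fell from 9.33 ± 2.91 to 3.53 ± 0.809 CPM (SD, n = 5 each; log2 fold change -1.40, SE 0.28, adjusted p = 0.000835 by edgeR). In these whole brains, fewer cells of a type and less RNA per cell cannot be told apart. All 6 markers of dividing cells measured (ASPM, AURKA, ANLN, BUB1, BUB1B and BORA) were called lower at 12 weeks, and none was at 0 in any of the 25 libraries. Their summed level ranged from 88.9 to 155 CPM at 5 weeks, from 47.3 to 62.97 CPM at 12 weeks and from 44.1 to 51.8 CPM at 39 weeks. Most of the sum at 12 and 39 weeks was BUB1, with means of 31.2 and 31.4 CPM. Between these ages ASPM was called lower (log2 fold change -2.13, adjusted p = 0.0148 by edgeR) and the other markers were not called. The part of these markers in the fall of both members was not tested.

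Likeness was searched only among 1904 tested genes of the same alphabetical stretch of names, and the rest of the 16484 genes tested were not compared. Those whose log2 CPM followed C13H6ORF108 most closely over the 25 libraries were ARHGAP19 (2 OF 2), with Pearson's r of 0.957, ARHGAP11A (0.948) and the dividing-cell marker BORA (0.938). For C1H15ORF23 they were AIDA (0.927), ARHGEF15 (1 OF 2) (0.921) and BRIP1 (0.914). These values carry no test and run over libraries of different ages and depths, so that a shared difference between ages enters r.

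Other members that fell between 5 and 12 weeks fell by smaller amounts. C18H6ORF27 (VWA7) measured 12.7, 16.4, 19.3, 19.99 and 24.0 CPM at 5 weeks and 8.99, 10.7, 11.6, 12.3 and 13.7 CPM at 12 weeks. Apart from 1 library at 5 weeks the ages were separate (log2 fold change -0.69, SE 0.15, adjusted p = 0.00206 by edgeR). C11H3ORF64 (EOGT), which adds N-acetylglucosamine to extracellular domains of receptors such as Notch, went from 29.1, 32.2, 34.9, 36.0 and 44.5 CPM to 23.1, 25.6, 25.6, 26.2 and 26.3 CPM without overlap (log2 fold change -0.48, SE 0.13, adjusted p = 0.00964). C12H16ORF53 (PAGR1), a subunit of histone methyltransferase complexes, went from 14.9 ± 2.98 to 10.3 ± 1.31 CPM (SD, n = 5 each) with overlap (log2 fold change -0.53, SE 0.15, adjusted p = 0.0126).

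Of 13 tested mitochondrial members, 5 were called lower and 1 higher at 12 weeks, where 13.01% of all genes were lower and 10.8% higher, with a median log2 fold change of -0.22 against 0.01 over all genes. C14H4ORF14 (NOA1), a GTPase needed for mitochondrial ribosomes, measured 41.9, 42.7, 47.1, 51.2 and 53.1 CPM at 5 weeks and 31.7, 31.7, 32.4, 33.9 and 38.2 CPM at 12 weeks. The ages did not overlap (log2 fold change -0.49, SE 0.08, adjusted p = 9.22e-05 by edgeR). C13H6ORF203 (MTRES1), a factor of mitochondrial transcription, measured 26.8, 27.4, 27.5, 29.9 and 42.7 CPM and then 20.2, 21.4, 22.6, 23.1 and 25.8 CPM (log2 fold change -0.45, SE 0.13, adjusted p = 0.0132). Its highest 5-week library, JM97, lay apart from the other 4, and without it the log2 fold change was -0.30 with an adjusted p of 0.0515. C11H12ORF10 (MYG1), an exonuclease of mitochondria and nucleus, was lower at 12 weeks by a log2 fold change of -0.43 (adjusted p = 0.00178), and C16H18ORF19 (2 OF 2) (FAM210A), linked to mitochondrial translation, by -0.42 (adjusted p = 0.0113). The fifth, C16H8ORF38 (NDUFAF6), an assembly factor of respiratory complex I, fell from 6.32 to 4.82 CPM (log2 fold change -0.39, adjusted p = 0.0393); it was named here because it was called. C16H7ORF30 (MALSU1), a factor of the mitochondrial ribosome's large subunit, and C13H6ORF57 (SDHAF4), an assembly factor of respiratory complex II, were not called, with log2 fold changes of -0.22 (adjusted p = 0.087) and -0.07 (adjusted p = 0.607).

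**Figure D2:**
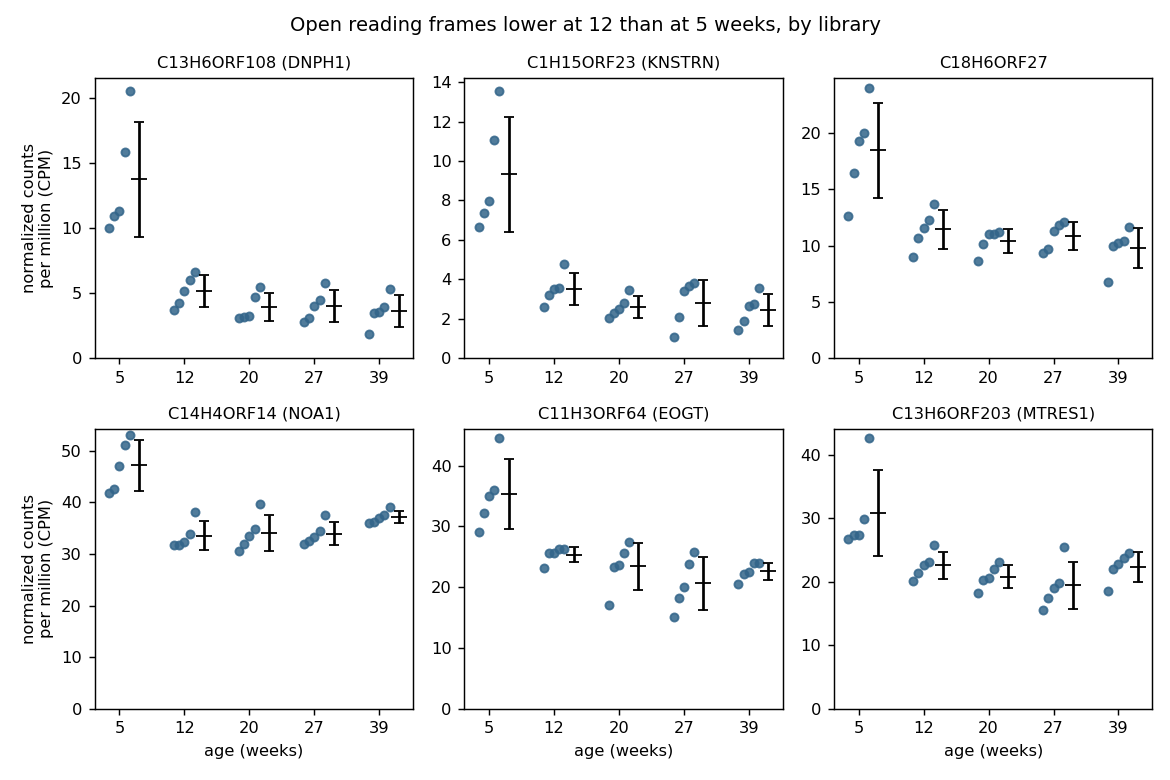
Normalized counts (CPM) of 6 open reading frames by age in weeks; each point is 1 library and the bars give the mean ± SD of 5 libraries. The 5-week libraries of C13H6ORF108 lie between 10.0 and 20.6 CPM and those of 12 weeks between 3.72 and 6.66 CPM; for C14H4ORF14 the ranges are 41.9 to 53.1 and 31.7 to 38.2 CPM.

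One mitochondrial member went the other way. C13H14ORF153 (COA8), which takes part in the assembly of cytochrome c oxidase, measured 18.5, 19.6, 22.5, 24.8 and 25.02 CPM at 5 weeks and 31.5, 32.7, 35.8, 39.3 and 40.1 CPM at 12 weeks. Each 12-week library was above each 5-week library (log2 fold change 0.70, SE 0.16, adjusted p = 0.00338 by edgeR). The spread was wide at 27 weeks, with 31.4, 41.8, 46.5, 50.4 and 73.8 CPM, and narrow at 39 weeks, with 39.4 to 46.9 CPM.

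The largest rise called between 5 and 12 weeks was that of C18H3ORF33, whose human counterpart still carries a provisional name. Its libraries were at 3.60, 3.66, 4.81, 4.84 and 5.94 CPM at 5 weeks and 6.92, 7.90, 9.13, 9.94 and 10.7 CPM at 12 weeks. The ages did not overlap and the mean rose from 4.57 ± 0.972 to 8.91 ± 1.51 CPM (SD, n = 5 each; log2 fold change 0.96, SE 0.22, adjusted p = 0.00291 by edgeR). At 20 and 27 weeks its libraries spread from 5.86 to 13.3 and from 5.71 to 13.7 CPM. Among the 1904 genes compared, the one most like it over the 25 libraries was C13H14ORF153 itself (r = 0.889), followed by BNIP3 (0.888) and BECN1 (0.881).

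C17H15ORF52 (CCDC9B), a coiled-coil protein, measured 43.9, 45.9, 47.6, 51.4 and 51.6 CPM at 5 weeks and 67.7, 78.9, 82.9, 84.6 and 88.8 CPM at 12 weeks. This rise without overlap (log2 fold change 0.74, SE 0.14, adjusted p = 0.000582 by edgeR) was the second largest of those called. Later its level was more variable, with 39.3 to 71.7 CPM at 20 weeks and 50.3 to 76.4 CPM at 39 weeks. Most like it among the genes compared were BDH1 (r = 0.801) and 2 other members, C15H11ORF51 (0.780) and C13H10ORF32 (0.775).

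Both of these were called higher at 12 weeks too. C15H11ORF51 (ANAPC15) measured 208, 218, 219, 234 and 239 CPM at 5 weeks and 251, 275, 284, 321 and 403 CPM at 12 weeks (log2 fold change 0.46, SE 0.12, adjusted p = 0.00884 by edgeR). C13H10ORF32 (BORCS7) measured 310.4, 314, 356, 357 and 361 CPM and 375, 419.5, 444, 458 and 589.8 CPM (log2 fold change 0.43, SE 0.12, adjusted p = 0.00917). The ages did not overlap in either gene, and the same 12-week library, JM107, was the highest in both. JM107 bears the mark w0w1, and with the 6 marked libraries left out the log2 fold changes were 0.31 (adjusted p = 0.0854) and 0.27 (adjusted p = 0.126), so that neither was called. Both calls were kept in each of the 25 fits without 1 library, including that without JM107. They were also kept with the mark as a factor.

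The remaining members that rose between 5 and 12 weeks did so by log2 fold changes of 0.44 or less. C10H22ORF36 (2 OF 2) rose by 0.44 (adjusted p = 0.0344), C15H17ORF76 (LRRC75A), a leucine-rich repeat protein, by 0.37 (adjusted p = 0.00221), and C15H17ORF108 (LYRM9) by 0.31 (adjusted p = 0.0294). The calls of C10H22ORF36 (2 OF 2) and C15H17ORF108 were each lost when 1 of several libraries of 5 or 12 weeks was left out, with adjusted p up to 0.101 and 0.127. C10H12ORF44 (ATG101), a subunit of the complex that starts autophagy, measured 69.8 to 79.9 CPM at 5 weeks and 81.9 to 96.3 CPM at 12 weeks (log2 fold change 0.25, SE 0.07, adjusted p = 0.011 by edgeR), and its adjusted p was 0.0572 without the marked libraries. C16H9ORF4 (FRRS1L), needed for the assembly of AMPA-type glutamate receptors, rose without overlap from 82.8, 86.0, 88.2, 92.1 and 92.9 CPM to 101.3, 104, 105, 108.1 and 119 CPM (log2 fold change 0.28, SE 0.05, adjusted p = 0.00065). At 20, 27 and 39 weeks it was at 106 to 122.97, 99.0 to 107.98 and 105 to 110.4 CPM. Over all members, 20 had no overlap between 5 and 12 weeks, or 12.9% of those tested, where 17.02% of all genes had none.

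Between 12 and 39 weeks, the comparison within adult life, 11 of the 155 members tested were called higher in old fish and 3 lower. Of all genes 5.81% were called higher and 6.8% lower. C13H1ORF63 (RSRP1) had libraries of 809, 914, 927, 937 and 1083 CPM at 12 weeks and 1267, 1412, 1429, 1606 and 1776 CPM at 39 weeks. The ages were apart and the mean rose from 934 ± 97.8 to 1498 ± 196 CPM (SD, n = 5 each; log2 fold change 0.68, SE 0.19, adjusted p = 0.0233 by edgeR). The call was lost without the 12-week library JM104 or the 39-week library JM1 or JM15, with adjusted p of 0.0544 to 0.0631 and log2 fold changes of 0.61 to 0.68. At 20 weeks 4 libraries were at 644 to 945 CPM and the fifth, JM75, at 1772 CPM, above every 12-week library. At 27 weeks the libraries were at 999, 1161, 1206, 1525 and 1697 CPM. Its log2 fold change from 20 to 27 weeks was 0.42 (adjusted p = 0.474), and 0.75 with an adjusted p of 0.0303 without JM75.

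Of the 13 mitochondrial members 3 were called between 12 and 39 weeks, all higher at 39 weeks, where 5.81% of all genes were higher and 6.8% lower. C17H14ORF159 (DGLUCY), which converts D-glutamate in mitochondria, measured 15.7, 19.7, 19.99, 21.8 and 24.5 CPM at 12 weeks and 23.6, 24.0, 27.3, 31.4 and 34.3 CPM at 39 weeks (log2 fold change 0.47, SE 0.11, adjusted p = 0.00986 by edgeR). C18H16ORF61 (CMC2), a factor of cytochrome c oxidase assembly, measured 7.98 to 12.5 CPM and 11.6 to 16.4 CPM (log2 fold change 0.50, SE 0.14, adjusted p = 0.0272). The libraries overlapped in both, and C13H6ORF57 (SDHAF4) rose from 48.9 to 61.4 CPM (log2 fold change 0.33, adjusted p = 0.0165). The call of C18H16ORF61 was lost without any 1 of 6 libraries, with adjusted p of 0.0554 to 0.0870.

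In membrane traffic, C19H1ORF85 (GLMP), a lysosomal membrane protein, rose from 29.9 to 40.0 CPM (log2 fold change 0.42, adjusted p = 0.0131) and C10H5ORF44 (TRAPPC13), of the complex that tethers transport vesicles, from 18.8 to 22.5 CPM (log2 fold change 0.26, adjusted p = 0.0438). C18H15ORF44 (INTS14), a subunit of the Integrator complex that cleaves nascent RNA, measured 54.2, 54.6, 55.0, 55.7 and 59.9 CPM at 12 weeks and 60.9, 64.6, 65.2, 67.1 and 73.9 CPM at 39 weeks. This small rise was without overlap (log2 fold change 0.25, SE 0.06, adjusted p = 0.0114 by edgeR). C19H1ORF216, without a human name, rose from 96.3 ± 15.7 to 130.1 ± 13.4 CPM (SD, n = 5 each; log2 fold change 0.43, SE 0.13, adjusted p = 0.0285), and C11H6ORF120 from 11.7 ± 2.02 to 16.5 ± 4.08 CPM (log2 fold change 0.50, SE 0.15, adjusted p = 0.037). Both calls were lost without any 1 of several 12-week or 39-week libraries, with adjusted p up to 0.0828 and 0.138. The weakly expressed C13H6ORF105 (ADTRP), a fatty acid ester hydrolase, was at 0.192, 0.223, 0.24, 0.866 and 1.33 CPM at 12 weeks and 0.542, 0.924, 1.75, 1.82 and 1.89 CPM at 39 weeks (log2 fold change 1.30, SE 0.42, adjusted p = 0.0447). Of its 25 leave-one-out fits 11 lost the call, with adjusted p up to 0.123. The last member called higher, C14H4ORF29 (ABHD18), rose by 0.27 (adjusted p = 0.0468) on the log2 scale.

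Only 3 members were called lower at 39 than at 12 weeks. Both contigs of C18H11ORF41 (KIAA1549L) that were measured share a zebrafish gene. Per the study's methods only unique hits were kept, so reads that fit both contigs equally would count for neither. Copy 1 OF 3 measured 52.3, 53.96, 54.6, 56.8 and 61.3 CPM at 12 weeks and 36.9, 39.5, 40.1, 46.5 and 48.4 CPM at 39 weeks (log2 fold change -0.40, SE 0.10, adjusted p = 0.0107 by edgeR). Copy 2 OF 3 measured 134, 140.3, 144, 146 and 164 CPM and 86.0, 114, 120.2, 127 and 131 CPM (log2 fold change -0.34, SE 0.10, adjusted p = 0.0299). Neither overlapped between these ages, and the call of copy 2 OF 3 was lost without JM104, JM105 or JM15, with adjusted p of 0.0534 to 0.0927. C11H3ORF21 (1 OF 2) (XXYLT1), a xylosyltransferase that extends glucose on Notch, measured 24.2, 29.03, 29.4, 29.7 and 31.0 CPM at 12 weeks and 18.8, 22.3, 22.7, 23.9 and 23.9 CPM at 39 weeks (log2 fold change -0.36, SE 0.08, adjusted p = 0.00963). With the 6 marked libraries left out, 1 of the 14 calls between 12 and 39 weeks was left, that of C17H14ORF159 (log2 fold change 0.56, adjusted p = 0.0337). The share of all genes called in that fit is not given here. Without overlap between 12 and 39 weeks were 7 members, or 4.52% of those tested, and 8.86% of all genes.

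**Figure D3:**
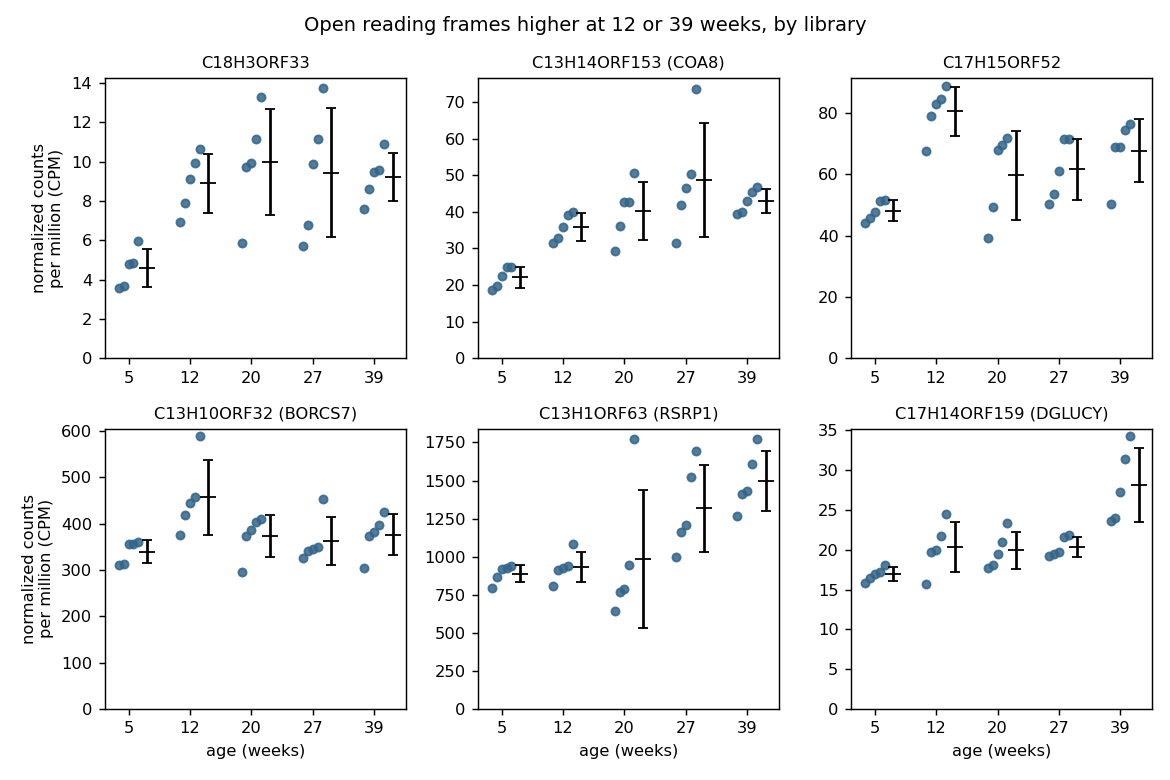
Normalized counts (CPM) of 6 open reading frames by age in weeks; each point is 1 library and the bars give the mean ± SD of 5 libraries. C18H3ORF33 lies between 3.60 and 5.94 CPM at 5 weeks and between 6.92 and 10.7 CPM at 12 weeks, while C17H14ORF159 lies between 15.7 and 24.5 CPM at 12 weeks and between 23.6 and 34.3 CPM at 39 weeks.

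The steps within adult life held few calls. From 12 to 20 and from 20 to 27 weeks no member was called by edgeR (0.0546% and 0.0% of all genes) and none by DESeq2, while 14 and 13 members (9.03% and 8.39%) had an unadjusted p under 0.05, against 9.99% and 9.82% of all genes. From 27 to 39 weeks 2 members were called (1.29%, against 1.07% of all genes), both higher at 39 weeks, where 0.546% of all genes were higher. C17H14ORF159 (DGLUCY) went from 19.2, 19.4, 19.7, 21.6 and 21.8 CPM to 23.6, 24.0, 27.3, 31.4 and 34.3 CPM without overlap (log2 fold change 0.46, SE 0.11, adjusted p = 0.048). C19H1ORF85 (GLMP) went from 25.7, 29.6, 29.6, 31.0 and 33.3 CPM to 32.9, 34.2, 38.2, 44.6 and 50.3 CPM, with overlap (log2 fold change 0.42, SE 0.10, adjusted p = 0.0486). Both p-values were close to the threshold, and the calls were lost in 20 and 24 of 32 alternatives, including each fit without 1 of the 5-week libraries, where log2 fold changes stayed at 0.46 and 0.42. DESeq2 called 7 members between these ages, all higher at 39 weeks, with both among them. The share of all genes that DESeq2 called is not given here.

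The comparison of 5 with 39 weeks shares its libraries with those above and held the most calls. C13H6ORF108 (DNPH1) was at 1.89, 3.46, 3.53, 3.91 and 5.34 CPM at 39 weeks (log2 fold change -1.91, SE 0.26, adjusted p = 4.87e-06 by edgeR) and C1H15ORF23 (KNSTRN) at 1.43, 1.89, 2.66, 2.75 and 3.54 CPM (log2 fold change -1.91, SE 0.28, adjusted p = 1.59e-05). Every 5-week library of both genes was above every 39-week library. C13H6ORF154 (LRRC73), a leucine-rich repeat protein, fell from 3.97, 5.36, 5.60, 5.78 and 7.16 CPM to 1.58, 2.42, 2.47, 2.83 and 2.94 CPM (log2 fold change -1.19, SE 0.25, adjusted p = 0.000673). The log2 fold changes of C18H6ORF27 (VWA7) and C11H3ORF64 (EOGT) were -0.91 (adjusted p = 6.01e-05) and -0.64 (adjusted p = 0.000462). The largest fitted fall, that of C12H16ORF79, rested on 1 library. It measured 0.138, 0.515, 0.602, 0.686 and 7.13 CPM at 5 weeks and 0.292, 0.391, 0.441, 0.50 and 0.707 CPM at 39 weeks (log2 fold change -1.93, SE 0.66, adjusted p = 0.0249), and without the 5-week library JM101 the log2 fold change was -0.04 with an adjusted p of 0.956. The call was also lost without the 39-week library JM18 (log2 fold change -1.79, adjusted p = 0.0568).

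Among the members higher at 39 than at 5 weeks, C18H3ORF33 rose by 1.01 (adjusted p = 0.000893), C13H14ORF153 (COA8) by 0.96 (adjusted p = 8.00e-05), C19H1ORF216 by 0.77 (adjusted p = 6.15e-05), C13H1ORF63 (RSRP1) by 0.75 (adjusted p = 0.00346) and C17H14ORF159 (DGLUCY) by 0.73 (adjusted p = 2.07e-05) on the log2 scale. None of these 5 members overlapped between 5 and 39 weeks. C13H10ORF54 (VSIR), an immune checkpoint receptor of myeloid and T cells, measured 4.95, 5.03, 6.24, 6.68 and 7.93 CPM at 5 weeks and 7.10, 10.7, 10.8, 12.5 and 14.2 CPM at 39 weeks (log2 fold change 0.84, SE 0.22, adjusted p = 0.00464 by edgeR). The microglial marker AIF1, the only one of its list, ranged from 2.57 to 4.80 CPM at 5 weeks and from 8.53 to 17.7 CPM at 39 weeks, and its part in the rise of C13H10ORF54 was not tested. Of the 4 immune members this was the only one called between 5 and 39 weeks, where 36.9% of all genes were called. C12H17ORF62 (1 OF 2) (CYBC1), needed for the phagocyte oxidase, and C16H1ORF38 (THEMIS2), a signalling protein of B cells and macrophages, had 5-week levels of 7.52 to 10.7 and 6.18 to 9.27 CPM and 39-week levels of 7.36 to 10.5 and 5.82 to 10.3 CPM. Over all members, 34 did not overlap between 5 and 39 weeks, 21.9% of those tested and 24.2% of all genes.

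Grouped by role, 70 members belonged to 1 or more of 9 lists. Of 11 tested members linked to DNA replication, repair, mitosis and meiosis, 2 were called lower and 1 higher at 12 than at 5 weeks, those described above, where 23.8% of all genes were called. None was called between 12 and 39 weeks, where 12.6% of all genes were. C10H11ORF30 (EMSY), a partner of BRCA2, was at 58.4 to 63.8 CPM at 5 weeks and 54.7 to 64.9 CPM at 12 weeks, and C14H22ORF41 (SYCE3), a protein of the synaptonemal complex of meiosis, at 17.6 to 20.6 and 15.5 to 28.96 CPM. Of 12 members of membrane traffic, autophagy and lysosome, 2 were called higher and 1, C14H4ORF41 (TRAPPC11), lower at 12 weeks (log2 fold change -0.23, adjusted p = 0.00453); between 5 and 39 weeks it was 3 and 1. The shares of all genes were 10.8% higher and 13.01% lower at 12 weeks, and 18.2% and 18.7% at 39 weeks. C18H16ORF70 (PHAF1), an autophagy regulator, was not called, with 0.14 (adjusted p = 0.154).

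None of 5 members of cilia and centrioles was called between 5 and 12, 12 and 39 or 5 and 39 weeks, where 23.8%, 12.6% and 36.9% of all genes were. C10H21ORF59 (CFAP298), needed for the motility of cilia, was at 27.4 to 34.0 CPM at 5 weeks and 26.5 to 36.0 CPM at 39 weeks. C17H14ORF80 (TEDC1), of the centriole, and C19H16ORF80 (CFAP20), of the ciliary axoneme, had log2 fold changes of -0.34 (adjusted p = 0.217) and -0.32 (adjusted p = 0.338) between 5 and 12 weeks. Of 5 glycosylation members, 2 were called lower between 5 and 39 weeks (18.7% of all genes), C11H3ORF64 (EOGT) and C11H3ORF21 (1 OF 2) (XXYLT1; log2 fold change -0.41, adjusted p = 0.000556), both of which act on Notch and other receptors with EGF-like repeats.

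Of 6 members of neurons and their contacts, 1 was called higher at 12 weeks (10.8% of all genes) and 2 at 39 weeks (18.2%) compared with 5 weeks. The first was C16H9ORF4 (FRRS1L), and the other was C10H21ORF91 (EURL), at 15.05 and 18.3 CPM (log2 fold change 0.28, adjusted p = 0.0109). C19H7ORF41 (MTURN) was at 88.7 to 114, 84.6 to 124.6 and 89.1 to 106 CPM at 5, 12 and 39 weeks. The axon guidance factor C11H1ORF187 (1 OF 2) (DRAXIN) was at 40.2, 34.1 and 34.8 CPM at the same ages and did not pass the test from 5 to 12 weeks (log2 fold change -0.24, adjusted p = 0.0954). At 20 weeks it was at 31.9 CPM. Between 5 and 20 weeks 1 member of this list was called higher and 1 lower, against 2534 and 2736 of the 16484 genes.

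Of 11 tested members of transcription, splicing and RNA, 2 were called lower and none higher at 12 than at 5 weeks (13.01% and 10.8% of all genes), C12H16ORF53 (PAGR1) and C17H14ORF166 (RTRAF), of the transfer RNA ligase complex (log2 fold change -0.40, adjusted p = 0.0185). Between 5 and 39 weeks 4 were called higher and none lower (18.2% and 18.7% of all genes), C13H1ORF63 (RSRP1), C18H15ORF44 (INTS14), C19H7ORF64 (RBM48), a splicing factor of minor introns, and C17H14ORF43 (1 OF 2) (MIDEAS), of a histone deacetylase complex. C17H14ORF43 (1 OF 2) rose from 58.3, 61.9, 63.7, 63.8 and 64.7 CPM to 77.0, 81.7, 82.9, 85.6 and 91.3 CPM without overlap (log2 fold change 0.42, SE 0.10, adjusted p = 0.00185 by edgeR). The list's median log2 fold change between 5 and 39 weeks was 0.05, and 0.01 over all genes.

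**Figure D4:**
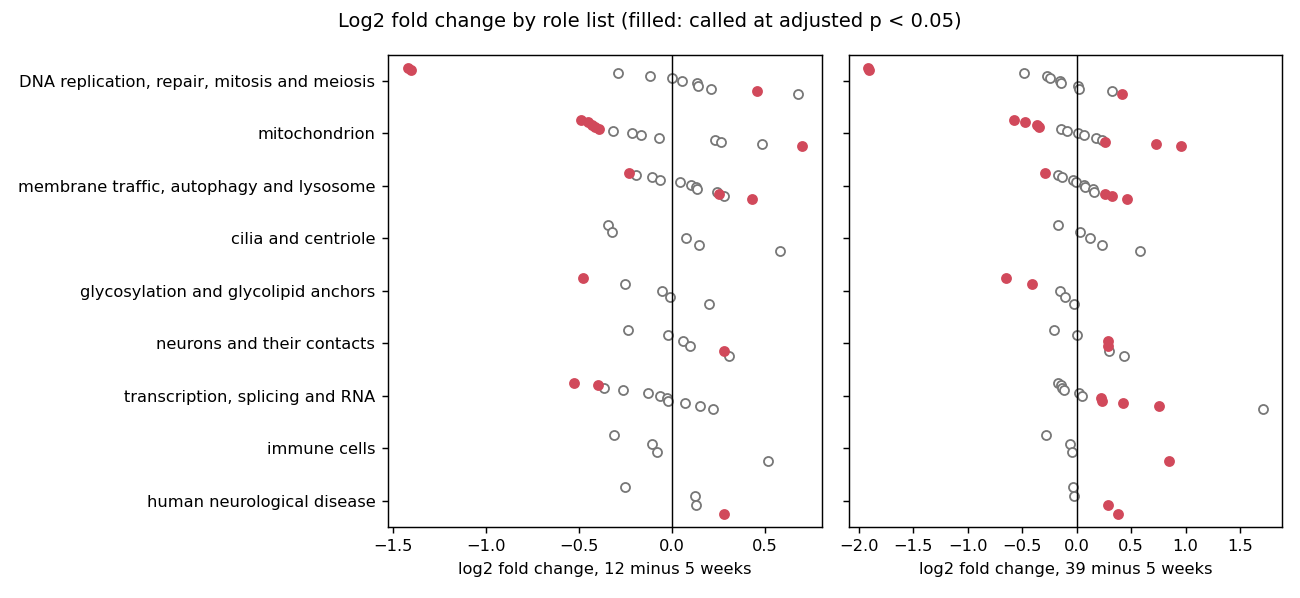
Log2 fold changes of the members of 9 role lists at 12 weeks (left) and 39 weeks (right) against 5 weeks; each point is 1 tested open reading frame, filled where it was called at an adjusted p under 0.05. In the mitochondrial list 5 of 13 points are called lower and 1 higher at 12 weeks (13.01% and 10.8% of all genes). At 39 weeks 4 are called lower and 3 higher (18.7% and 18.2% of all genes).

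A list of 4 members whose human counterparts are mutated in neurological disease, which does not hold every such member, had 2 called between 5 and 39 weeks (36.9% of all genes). C13H9ORF72 (C9ORF72), the gene of the repeat expansion in amyotrophic lateral sclerosis and frontotemporal dementia, was at 79.9 to 86.0, 86.3 to 98.7, 72.6 to 85.6, 82.1 to 91.7 and 65.7 to 92.7 CPM at the 5 ages. It was not called between 5 and 12, 12 and 39 or 5 and 39 weeks, and its log2 fold change between 5 and 39 weeks was -0.04 with an SE of 0.07. C18H19ORF12 (2 OF 4) (C19ORF12), mutated in a neurodegeneration with brain iron accumulation, measured 38.9, 43.7, 44.1, 49.98 and 62.4 CPM at 5 weeks and 54.3, 54.9, 63.1, 67.0 and 71.1 CPM at 39 weeks (log2 fold change 0.38, SE 0.12, adjusted p = 0.019 by edgeR, with overlap). C16H9ORF4 (FRRS1L), mutated in an epileptic encephalopathy, is described above. C16H3ORF39 (POMGNT2), a glycosyltransferase of dystroglycan mutated in muscular dystrophy with brain malformation, was not called, with 129 ± 13.1, 108.3 ± 14.5 and 127 ± 19.1 CPM (SD, n = 5 each) at 5, 12 and 39 weeks.

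A few members differed widely between fish of one age. The spread was summarised as the coefficient of variation (CV, SD divided by mean) within each age and its median over the 5 ages, which was 12.8% for the median member and 12.9% over all genes. The members below were chosen after their values were seen. C17H14ORF126 (DTD2), which clears wrongly charged transfer RNA, had the largest CV of all members, 145%, higher than in 99.95% of the genes tested. It had 62 to 200 counts in 10 libraries and 0 to 2 counts in the other 15, with no library in between. In CPM the values were 0, 0, 0.0547, 0.0589 and 5.21 at 5 weeks, 0, 0.0383, 0.0558, 0.0912 and 4.59 at 12 weeks and 0, 0.0518, 4.08, 5.54 and 10.3 at 20 weeks. At 27 weeks they were 0, 0, 0.0457, 3.34 and 6.05 CPM and at 39 weeks 0, 0.109, 5.42, 5.54 and 5.91 CPM. High and near-zero libraries occurred at every age, and no difference between ages was called (edgeR adjusted p = 0.926 between 5 and 12 weeks and 0.392 between 5 and 39 weeks). A gap as wide as 3 units in sorted log2(count + 1) was found in 2 of the 155 members and in 21 of the 16484 genes (0.127%).

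The other member with such a gap was C14H11ORF80 (TOP6BL), a factor of meiotic DNA breaks, with 0, 3.24, 3.41, 3.57 and 4.69 CPM at 12 weeks, 0.0515, 1.44, 1.87, 4.35 and 4.53 CPM at 20 weeks and 0, 1.5005, 1.96, 2.28 and 3.41 CPM at 39 weeks. In these 3 ages 1 library each was at or near 0, while at 5 and 27 weeks all libraries were at 1.77 to 3.46 and 1.49 to 2.01 CPM. C19H8ORF80 (4 OF 5) (NUGGC), a nuclear GTPase, ranged from 0.287 to 10.4 CPM at 20 weeks and from 0.0834 to 6.83 CPM at 39 weeks, with a CV of 125.6%. Its label names 5 fish copies. As only unique hits were kept, its counts may lack reads that also fit another copy, or hold misplaced reads of one.

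C14H5ORF25 (SIMC1), a protein that binds SUMO, was well expressed and fell into a lower and a higher range at every age. Its values were 28.3, 29.9, 31.5, 33.7 and 82.4 CPM at 5 weeks, 27.5, 33.2, 69.2, 84.6 and 107 CPM at 12 weeks and 27.4, 32.6, 57.6, 82.4 and 89.5 CPM at 20 weeks. At 27 weeks they were 31.4, 35.8, 37.02, 69.2 and 73.1 CPM and at 39 weeks 29.3, 31.3, 32.4, 76.2 and 92.5 CPM. No library lay between 37.02 and 57.6 CPM, the CV was 52.6%, and the log2 fold change between 5 and 39 weeks was 0.35 (adjusted p = 0.56). By contrast, C14H4ORF41 (TRAPPC11) varied least among the members, with a CV of 4.05%.

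**Figure D5:**
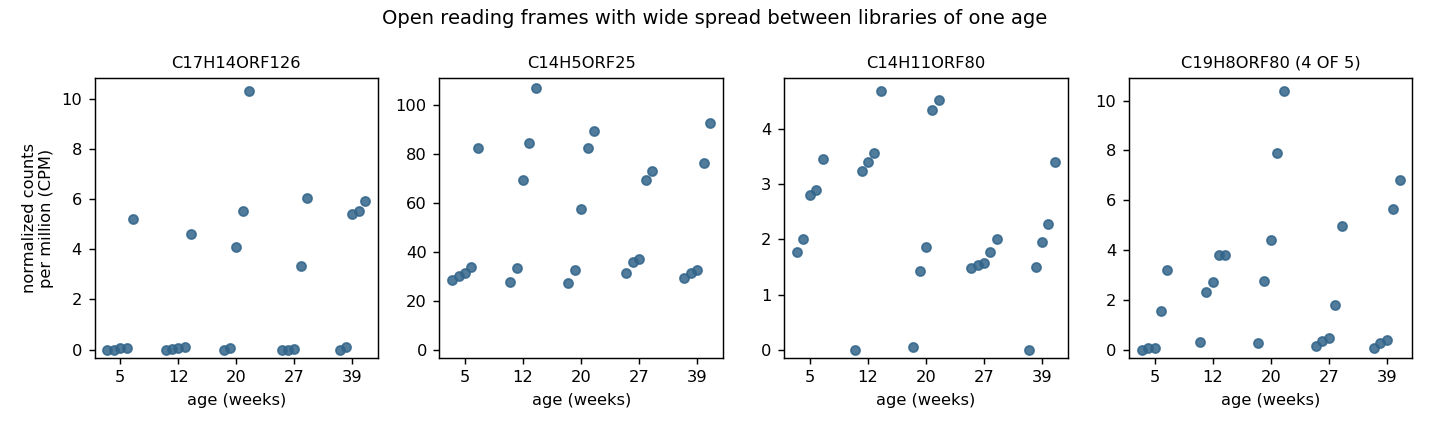
Normalized counts (CPM) of 4 open reading frames by age in weeks; each point is 1 library, with the 5 libraries of an age sorted from left to right. C17H14ORF126 lies at 0.109 CPM or less in 15 libraries and at 3.34 to 10.3 CPM in the other 10, and C14H5ORF25 at 37.02 CPM or less or at 57.6 CPM or more.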

How the data were processed

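Per the study's methods, Bowtie placed reads on assembled, annotated transcripts, and only unique hits were kept. CASAVA, TopHat2 2.0.6 and featureCounts 1.4.3-p1 are also listed in the processing notes of the submitters. The deposited values were whole-number counts per contig and RPKM, both made by the authors before deposit. Names were paired with contigs where the shares of the 5 age means of RPKM matched within 3e-06 (1994 of 1999 names). Dividing count by RPKM showed that for 1978 of the 1994 named contigs the length used was that of another row of the table, at an offset of up to 85 rows, so RPKM was not compared between genes. The contig's own length was taken from the shifted row for all 161 members.

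Counts were tested with edgeR 4.0.16 in R 4.3.3, with TMM factors, filterByExpr by age, 1 coefficient per age over all 25 libraries, and Benjamini-Hochberg adjustment over 16484 genes, and the code was checked on simulated counts. CPM was computed from the deposited counts and normalized library sizes, and SE as the log2 fold change divided by the root of F. Likeness between genes used log2(CPM + 0.5). Alternatives were RLE and upper quartile factors, no filter, DESeq2 1.42.0, the w0w1 libraries left out or as a factor, only the ages compared, and each library left out. Named members were those called with the largest change and all called in later steps. The former were 8 each way from 5 to 12 weeks and 6 each way from 12 to 39 and 5 to 39 weeks. Also named were the 3 of each role list with the highest mean CPM, the 3 best expressed per length and the disease list. Others were named after their values were seen. The members and lists were chosen with earlier results of these data known. Without molecular identifiers, PCR reads are not counts of single molecules. A second pair of tables, for other gene models, and the authors' own columns of test results were not used.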

Additional observations from a re-analysis of the deposited data

Results flagged for a closer look

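In the 29 members named for a change, each age group of 5 libraries was searched for a library far from the other 4, by Dixon's ratio of the gap to the whole range, with a critical value of 0.71. Of 145 groups 10 held one. About 1 in 20 would pass this value if the groups were independent and normally distributed. The members were chosen by their calls and share the same libraries, so 10 of 145 cannot be set against that rate. Library JM75 at 20 weeks stood apart in C13H1ORF63, as the highest with 1772 CPM, and in C15H11ORF51, as the lowest with 202 CPM. Library JM72 at 27 weeks was the highest in C15H11ORF51 with 328 CPM and in C13H10ORF32 with 454 CPM. In C12H16ORF79 the 5-week library JM101 was at 7.13 CPM and the 27-week library JM69 at 0.949 CPM, each the highest of its age. C13H6ORF203 was highest in JM97 at 5 weeks with 42.7 CPM, and C12H16ORF53 in JM1 at 39 weeks with 16.9 CPM. At 12 weeks C11H3ORF64 was lowest in JM104 with 23.1 CPM, and C11H3ORF21 (1 OF 2) in JM113 with 24.2 CPM.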

How the results depend on the processing

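Counts of members called between 5 and 12 weeks (29) and between 5 and 39 weeks (55) stayed within 1.5 times under every alternative, at 22 to 34 and 44 to 56 with 1 library left out. Between 12 and 39 weeks the 14 calls became 1 without the w0w1 libraries, 7 with only both ages in the fit, and 5 (without JM104) to 19 (without JM107) with 1 library left out; without JM1 there were 6, and without JM105, JM12 or JM15 7 each. Between 27 and 39 weeks the 2 calls became 1 with upper quartile factors, 0 without a filter, 0 without the w0w1 libraries, 1 with that mark as a factor, 0 with only both ages in the fit, 7 with DESeq2 and 0 to 9 with 1 library left out (9 without JM13, 7 without JM72). Between 20 and 27 weeks the count was 0 to 1 with 1 library left out, the 1 being C13H1ORF63 without JM75, and between 12 and 20 weeks it was 0 throughout. Shares of all genes called under these alternatives are not given here, so whether the members differ from all genes in this cannot be told. The cause of these changes was not tested, and leaving out libraries leaves fewer residual degrees of freedom. Of 62 named results 42 were called, and 24 of these kept the call under all 32 alternatives (13 of 19 between 5 and 12 weeks, 0 of 9 between 12 and 39 weeks, 11 of 12 between 5 and 39 weeks and 0 of 2 between 27 and 39 weeks). None reversed; 14 were lost without the w0w1 libraries. No paired analysis was possible because the labels give each library its own number and no number is shared between ages. Members under about 1 CPM rest on few counts.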
